A study of Mus musculus with 7 samples.

Results

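Isolated peaks of the glucocorticoid receptor (GR) that had no counterpart for PPARα were examined in mouse BFU-E (burst-forming unit erythroid cells), the earliest progenitors committed to red cells. A GR peak was taken when it shared no base with any peak of the PPARα list and when no other GR peak lay within 100 kb of its edges on the same chromosome. This gave 247 of 1157 GR peaks. Of all GR peaks, 35.1% (406) had no PPARα overlap and 71.0% (822) had no other GR peak within 100 kb. The remaining 575 isolated GR peaks overlapped a PPARα peak and are called the shared isolated peaks. Both conditions rest on the authors' peak calls, so the number of peaks, their widths, reads and folds are a description of the lists and are not tested.

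Chromatin immunoprecipitation followed by sequencing was carried out on BFU-E that had been purified from 129/SvImJ fetal livers at E14.5. The 7 samples of the series are input DNA and, for GR and for PPARα, cells left untreated, given dexamethasone, or given dexamethasone and GW7647 together. Peak lists of 2 samples were used, those of GR and of PPARα in cells exposed to both compounds (dexamethasone at 100 nM, GW7647 at 10 μM) for 4 h, both called against input DNA labelled with the same treatment. The other 5 samples, untreated cells among them, were not analysed here as lists of their own. There was 1 library per antibody, so no value below has a replicate check, and nothing measures the effect of either compound. The labels do not say how many livers were pooled, and the identity of the cells was not checked, as peak lists hold no expression values. In the header of the PPARα table the name of the ChIP reads carries the mark for dexamethasone but lacks the second mark seen in those of GR and input. The treatment of the PPARα library therefore rests on its sample label, and since every peak described here was chosen by absence from that list, no value could be given without it.

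GR is a nuclear receptor that sits in the cytoplasm with chaperones until a glucocorticoid such as dexamethasone binds it, after which it enters the nucleus and contacts DNA at palindromic response elements or through other factors. In erythroid progenitors glucocorticoids favour self-renewal over maturation. PPARα is a receptor for fatty acids and for agonists such as GW7647, and it binds DNA as a partner of RXR at direct repeats. A GR peak without a PPARα peak is a place where reads pulled down with the GR antibody exceeded the input while the PPARα list had no call. The lists hold only called peaks, so how many PPARα reads lay in these places was not measured.

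The isolated GR-only peaks were small. They held a median of 7 reads (quartiles 6 and 8), against 10 reads (quartiles 7 and 18) in the shared isolated peaks and 9 reads over all GR peaks. No GR peak held fewer than 6 reads, and 122 of the 247 (49.4%, exact 95% interval 43.0 to 55.8%) stood at that minimum, against 94 of 575 shared isolated peaks (16.3%, interval 13.4 to 19.6%). Over all GR peaks 23.9% stood at that minimum. Another 49 of the 247 held 7 reads, and 208 held at most 10. A count of 6 reads has an exact Poisson 95% interval of 2.20 to 13.1, so single peaks at the minimum are poorly determined. All intervals cover counting error only. Together the 247 peaks held 2536 of the 28925 GR reads in peaks (8.77%) over 31107 bp.

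Their enrichment over input was lower at the median than that of the shared isolated peaks, and folds ranged from 4.62 to 124.4. The median fold was 23.7 (quartiles 19.0 and 29.6), against 41.5 (quartiles 35.5 and 69.1) in the shared isolated peaks and 35.5 over all GR peaks. A fold of 10 or more, the limit of the authors' shorter GR list, was reached by 221 of the 247 (89.5%), and 91.4% of all GR peaks reached it. Folds of 20 to 40 made up 162 of the 247, folds from 10 to under 20 made up 42, and 17 exceeded 40. Only 1 exceeded 48, against 227 of the 575 shared isolated peaks (39.5%) and 24.8% of all GR peaks. As described below, no whole-read fold exceeded the reads of its peak, so this contrast in part repeats that in reads. The score of the peak caller, 10 times the negative log10 of its p, had a median of 67.7 (range 50.5 to 563.9). It was above 100 in 35 of the 247 (14.2%), against 569 of all 1157 GR peaks (49.2%).

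**Figure D1:**
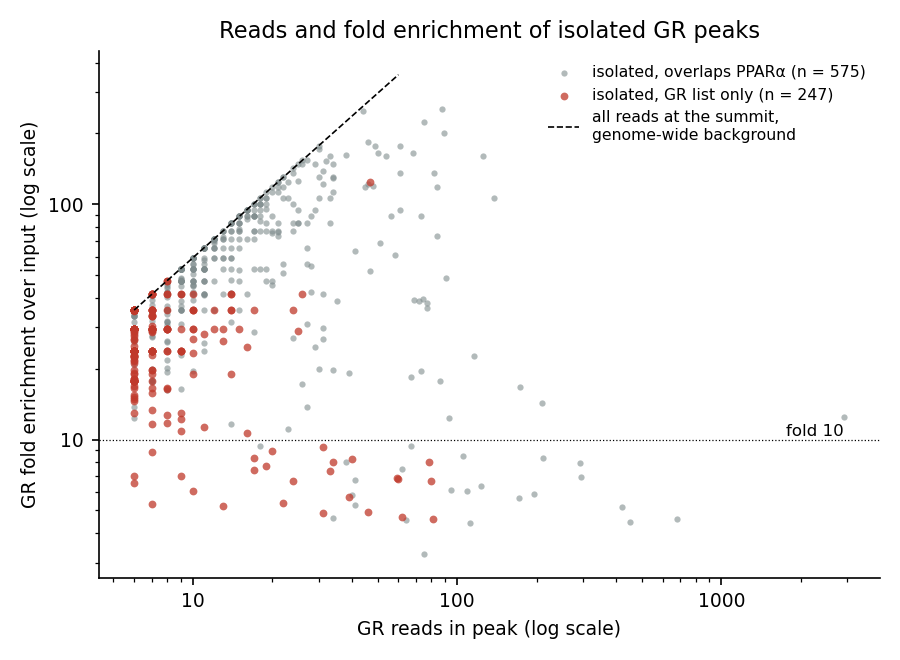
GR reads in each isolated peak against its fold enrichment over input, both on log axes, for 247 peaks found in the GR list only and 575 that overlap a PPARα peak; each point is 1 peak. The dashed line is the fold of a peak whose reads all lie at the summit over the genome-wide background, and the dotted line is a fold of 10. The GR-only peaks gather at 6 to 10 reads below a fold of 48, a second group lies under a fold of 10 with up to 81 reads, and 1 peak stands at 47 reads and a fold of 124.4.

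The GR-only peak with the strongest enrichment lay on chromosome 11 from 94135551 to 94135870 (mm9, as are all positions), with a summit at 94135728. It held 47 reads (exact Poisson 95% interval 34.5 to 62.5), a fold of 124.4 and a score of 563.9. Its fold was the only one above 48, and its neighbours were far away, with the nearest GR peak 1.81 Mb off and the nearest PPARα peak overlapping that GR peak. The PPARα library was 0.261 times as deep as the GR library, so 47 GR reads scale to 12.3 reads at its depth, while PPARα peaks were called from 4 reads upwards. The FDR given by the peak caller was 2.44% there, the highest among the 247. An FDR of at most 1% was given to 243 of them (98.4%), to 87.1% of the shared isolated peaks and to 91.4% of all GR peaks. The median score was 67.7 in the GR-only and 129.2 in the shared isolated peaks. The FDR thus does not rank these groups as the score does.

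The next peaks by fold were close to one another. A peak on chromosome 6 from 35813911 to 35813980 and another from 62322273 to 62322328 each had a fold of 47.4 on 8 reads, with widths of 70 and 56 bp. Then came 14 peaks at a fold of 41.5. By their reads, the first 7 of these lay on chromosome 1 from 156903288 to 156903607 (26 reads), on chromosome 2 from 122203748 to 122203926 (14 reads), on chromosome 3 from 136453573 to 136453745 (14 reads), on chromosome 12 from 95735046 to 95735173 (10 reads), on chromosome 11 from 62365825 to 62365970 (9 reads), on chromosome 5 from 140199125 to 140199275 (9 reads) and on chromosome 15 from 67020337 to 67020449 (8 reads). These 7 peaks held 8 to 26 reads at the same fold. They were grouped by that fold and taken by most reads. Their spread in reads therefore cannot show how fold and reads were related. The peak on chromosome 1 was 320 bp wide and the one on chromosome 15 was 113 bp wide. No gene is given for any peak, since the reference tables at hand are on GRCm38 and the peaks on mm9, and no sequence is printed for the same reason.

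Fold can be read in units of reads. The fragment length in the header of the GR list was 42 bp, below the 200 bp of the shortest fragment kept in the libraries. Reads spread evenly over the genome would give 0.169 reads per 42 bp. Over this genome-wide background 1 GR read is worth a fold of 5.92. Within a tolerance of 0.02 reads, 156 of the 247 folds (63.2%) were a whole number of such reads, against 426 of 575 (74.1%) in the shared isolated peaks. Of these, 51 stood at 4 reads, 40 at 5, 36 at 6, 14 at 7 and 11 at 3. No whole-read fold in the GR list exceeded the reads of its peak. In 30 GR-only peaks the fold was worth every read of the peak, as if all reads covered the summit, and 28 of these were at most 80 bp wide. In the shared isolated peaks 187 were of that kind.

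At equal reads the GR-only peaks were wider and less stacked than the shared ones. Among peaks of exactly 6 reads the median width was 110 bp (quartiles 87.2 and 118) in the GR-only group and 69.5 bp (quartiles 59.2 and 84.5) in the shared isolated group. Among peaks of 7 reads the medians were 119 and 82 bp. With 9 or 10 reads they were 160 bp over 21 peaks and 87 bp over 77 peaks, and with 11 to 15 reads 195 bp over 13 and 95 bp over 86. The groups overlapped in range, since both reached 125 bp at 6 reads.

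**Figure D2:**
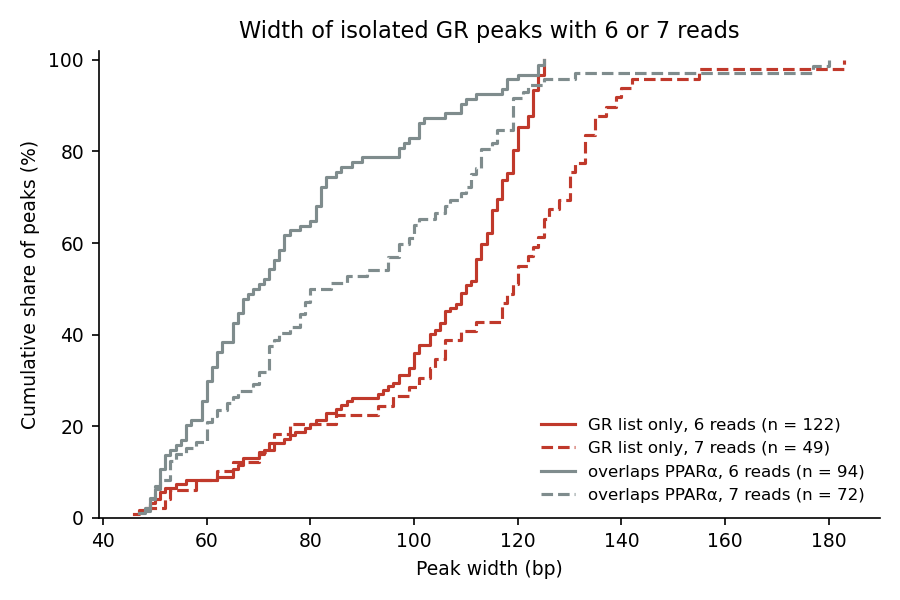
Cumulative share of isolated GR peaks by width in bp, for peaks with 6 reads (solid lines) and 7 reads (dashed lines), in the GR list only or overlapping a PPARα peak. The GR-only curves lie to the right, with medians of 110 and 119 bp against 69.5 and 82 bp, and both 6-read curves end at 125 bp.

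The position of the reads within the peak differed in the same manner. Of the 88 GR-only peaks with 6 reads and a whole-read fold, 22 (25%) had a fold worth all 6 reads, 20 were worth 5, 36 were worth 4 and 10 were worth 3. Of the 81 shared isolated peaks of that kind, 58 (71.6%) were worth all 6, 15 were worth 5, 6 were worth 4 and 2 were worth 3. The 22 GR-only peaks worth 6 reads were 47 to 83 bp wide, and the 36 worth 4 reads were 106 to 125 bp wide. Among these 88, of the 122 GR-only peaks with 6 reads, the most frequent form was thus a fold worth 4 reads over little more than 100 bp. Reads at the summit were inferred from the fold and not counted. The summit fell within 1 bp of the midpoint in 59 of the 247 (23.9%) and in 250 of the 575 (43.5%). Over all GR peaks that share was 33.7%. Width, stacking and summit position are tied to one another, as reads that all cover the summit make a narrow peak. They are therefore not separate results.

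Over all 247 GR-only peaks the width had a median of 117 bp (quartiles 97 and 134, range 46 to 373), against 95 bp (quartiles 68 and 132) in the shared isolated peaks. At most 80 bp, or 2 read lengths, were 43 GR-only peaks (17.4%) and 229 shared isolated peaks (39.8%). Wider than that but under 200 bp were 182 (73.7%) and 298 (51.8%). Over all GR peaks these width shares were 29.4% and 59.5%. Widths of 200 bp or more, the shortest fragment kept in the libraries, were reached by 22 GR-only peaks (8.91%) and 48 shared isolated peaks (8.35%), shares whose intervals of 5.67 to 13.2% and 6.22 to 10.9% overlapped.

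How often an isolated GR peak lacked a PPARα call varied with its reads and its width. The share without one was 56.5% at 6 reads (122 of 216, exact 95% interval 49.6 to 63.2%) and 40.5% at 7 reads (49 of 121). It was 19.0% at 8 reads (16 of 84), 21.4% at 9 or 10 reads (21 of 98) and 13.1% at 11 to 15 reads (13 of 99). At 16 to 24 reads it was 11.9% (10 of 84), and at 25 or more it was 13.3% (16 of 120). Among peaks with a fold of 10 or more the last 2 shares were 5.19% (4 of 77) and 3.53% (3 of 85).

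Within peaks of 6 or 7 reads the share was higher in wider peaks over most of the range. It was 24.6% at 45 to 60 bp (14 of 57, interval 14.1 to 37.8%), 28.0% at 61 to 80 bp (21 of 75) and 46.0% at 81 to 100 bp (23 of 50). It was 68.9% at 101 to 120 bp (73 of 106) and 84.1% at 121 to 140 bp (37 of 44, interval 69.9 to 93.4%). Only 5 peaks were wider, of which 3 had no PPARα overlap. At the narrow end, GR-only peaks of at most 80 bp with a fold of 10 or more numbered 36, and none of them held more than 11 reads. In peaks of at most 80 bp with 9 or 10 reads and a fold of 10 or more, 0 of 34 lacked a PPARα overlap (upper bound of the exact 95% interval 10.3%), against 19 of 62 wider ones of the same reads and fold (30.6%). These bands were set after the values had been seen, and bands of few peaks have wide intervals.

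**Figure D3:**
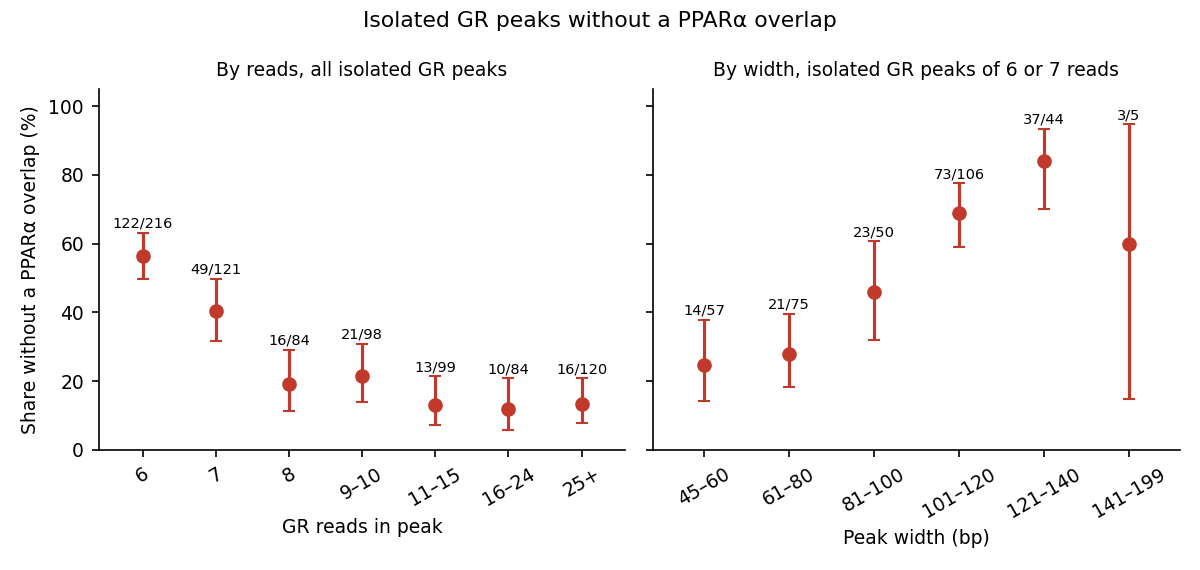
Share of isolated GR peaks without a PPARα overlap, in percent, by reads in the peak (left, all 822 isolated peaks) and by width (right, isolated peaks of 6 or 7 reads). Points are shares with exact 95% intervals for counting error, and the numbers above give GR-only over all isolated peaks. The share is 56.5% at 6 reads and 13.3% at 25 or more, and it is 24.6% in the narrowest band by width and 84.1% at 121 to 140 bp.

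Depth limits what absence from the PPARα list can show. A median GR-only peak of 7 reads scales to 1.82 reads at the depth of the PPARα library, below the 4 reads of the smallest PPARα peak. A GR peak needs 16 reads to scale to 4, and 221 of the 247 had fewer. By that measure a PPARα signal of the same strength relative to depth would scale to fewer than 4 reads in them. Of the 575 shared isolated peaks, 397 also had fewer than 16 GR reads. Among these, 166 held 6 or 7 GR reads, each with 1 PPARα partner. That partner held a median of 6 reads and up to 17. The median ratio of partner reads to GR reads was 1.0 in these 166, beside a depth ratio of 0.261. Only peaks called in both lists enter these values, so no partner can hold fewer than 4 reads. Whether depth accounts for absence from the PPARα list was not tested.

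The peaks with enough reads for such a comparison were few. There were 26 with 16 reads or more. Those with a fold under 10 are described below, and the one with most reads, 81, scales to 21.1 reads. A fold of 10 or more was reached by 7 of the 26, a selection made after the values were seen. After the peak on chromosome 11 and the peak of 26 reads on chromosome 1 came one on chromosome 7 from 139921153 to 139921419, with 25 reads (interval 16.2 to 36.9) and a fold of 29.0. On chromosome 3 a peak from 32263020 to 32263352 had 24 reads and a fold of 35.5, and on chromosome 17 a peak from 28655033 to 28655291 had 17 reads and a fold of 35.5. The last 2 had 16 reads each, on chromosome 6 from 38483888 to 38484154 with a fold of 24.8 and on chromosome 1 from 133470396 to 133470492 with a fold of 10.7. All but the last were 259 to 333 bp wide, wider than most of the 247. Their reads scale to between 4.17 and 12.3 at the depth of the PPARα library. Of these 7, only the chromosome 11 peak scales to more than 6.78 reads, so the other 6 lie close to the smallest PPARα peak of 4 reads.

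A second kind of GR-only peak had little enrichment, in most cases with many reads. It is defined by fold alone, and 10 of its 26 peaks held fewer than 20 reads. A fold under 10 was found in 26 of the 247, with 6 to 81 reads (median 27.5) and widths of 46 to 373 bp (median 173 bp). None of these 26 folds was a whole number of reads at the genome-wide background, and all were worth less than 1.58 such reads although 16 of the 26 held 20 or more reads. The background against which those 16 were called was therefore above the genome-wide level. Of the 20 GR-only peaks with 20 or more reads, these 16 were 80% (exact 95% interval 56.3 to 94.3%), while 22 of 134 shared isolated peaks with 20 or more reads (16.4%, interval 10.6 to 23.8%) had a fold under 10. Most GR-only peaks with many reads were thus of low enrichment.

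Of the 10 GR-only peaks with most reads, all but the chromosome 11 peak of fold 124.4 were of this second kind. They were led by chromosome 13 from 3372288 to 3372580 with 81 reads and a fold of 4.62, chromosome 18 from 3005191 to 3005563 with 80 reads and a fold of 6.66, and chromosome 5 from 147072565 to 147072923 with 78 reads and a fold of 8.06. Next were chromosome 8 from 19759994 to 19760321 (62 reads, fold 4.67), chromosome 18 from 40467707 to 40468009 (60 reads, fold 6.81) and chromosome 6 from 29698273 to 29698601 (59 reads, fold 6.89). The others were chromosome 6 from 49186447 to 49186615 (46 reads, fold 4.93), chromosome 11 from 88943150 to 88943358 (40 reads, fold 8.29) and chromosome 19 from 61275599 to 61275780 (39 reads, fold 5.69). These sites also supplied 4 of the 5 widest GR-only peaks, at 328 to 373 bp. The fifth was the peak on chromosome 3 of 333 bp and fold 35.5. The highest score among the 26 was 158.4, for the peak on chromosome 5.

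A few of these peaks lay near the start of the assembled sequence. On the numbered chromosomes and X, 3 of the 247 started below position 4000000, which are those on chromosomes 13 and 18 at the head of the list by reads and one on chromosome 16 from 3113449 to 3113666 with 31 reads and a fold of 4.88. All 3 had a fold under 10. How many of all GR peaks started there was not counted. Peaks outside the 247 did so too, for example the one on chromosome 11 from 3093224 to 3094419. The peak at the start of chromosome 18 lay 1361 bp from a PPARα peak of 6 reads and fold 9.68. On chromosome Y there were 2 GR-only peaks, from 626212 to 626260 with 6 reads and a fold of 35.5, and from 1312790 to 1312891 with 10 reads and a fold of 6.07.

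The gap from a GR-only peak to the nearest PPARα peak had a median of 647 kb (quartiles 260 and 1269 kb). It was under 100 kb in 28 of the 247, under 10 kb in 9 and under 1 kb in 5. For 92 of the 247 that PPARα peak overlapped a GR peak, so the selection by GR gap also bears on this distance. No expected distance was computed. The gap to the nearest other GR peak, which the selection keeps at 100 kb or more, had a median of 991 kb (quartiles 479 and 1791 kb) and reached 7.81 Mb. In the shared isolated peaks that gap had a median of 1062 kb. The nearest GR peak was a shared isolated one for 154 of the 247, another GR-only isolated one for 66, and a peak in a group for the other 27.

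**Figure D4:**
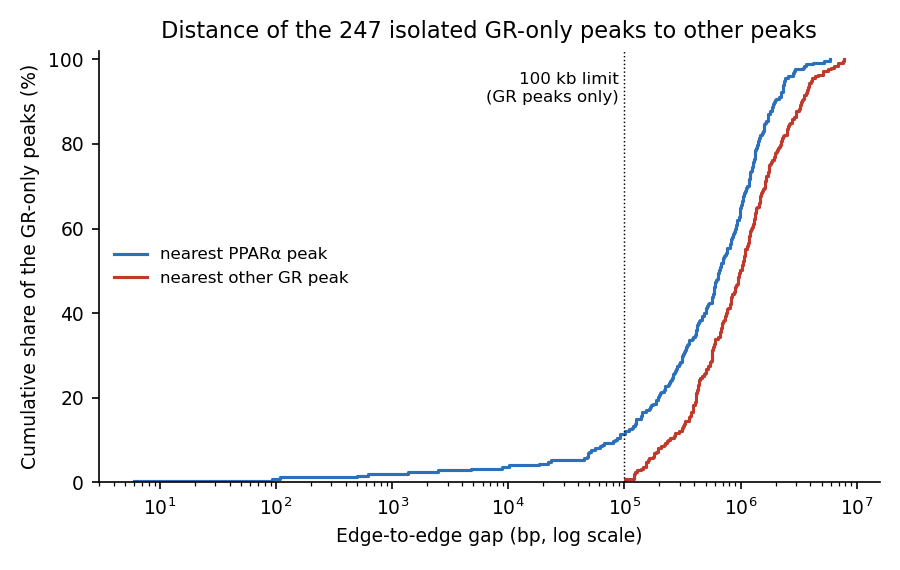
Cumulative share of the 247 isolated GR-only peaks by edge-to-edge gap in bp (log axis) to the nearest PPARα peak and to the nearest other GR peak. The GR curve starts at the 100 kb limit of the selection, and 11.3% of the peaks have a PPARα peak closer than that.

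The 5 nearest to a PPARα peak were near misses of the overlap rule. On chromosome 9 the GR peak from 82984420 to 82984544, with 6 reads and a fold of 17.8, began 6 bp after a PPARα peak from 82984306 to 82984414 with 4 reads, and the summits were 91 bp apart. On chromosome 5 the GR peak from 74453573 to 74453702 (7 reads, fold 23.7) lay 93 bp from a PPARα peak of 4 reads, with summits 186 bp apart. On chromosome 11 the GR peak from 62365825 to 62365970, named above for its fold of 41.5, lay 109 bp from a PPARα peak of 6 reads, with summits 236 bp apart. The gaps were 494 bp on chromosome 2 for the GR peak from 38084791 to 38084909 (6 reads, fold 29.6) and 624 bp on chromosome 19 for that from 7470895 to 7471010 (6 reads, fold 23.7). All 5 PPARα peaks held 4 to 6 reads. On the other side of the rule, the smallest overlap of a shared isolated peak was 16 bp, on chromosome 18 from 61516213 to 61516367, and the next smallest were 40 and 41 bp in GR peaks of 48 and 63 bp.

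The peaks nearest to the limit of 100 kb were as follows. Just inside it were a peak on chromosome 6 from 86353920 to 86354022 with a gap of 101.1 kb (6 reads, fold 27.5), one on chromosome 10 from 123113362 to 123113409 with 101.4 kb (7 reads, fold 5.33) and one on chromosome 12 from 112083500 to 112083617 with 120.0 kb (8 reads, fold 23.7). Just outside were a peak on chromosome 7 from 87099788 to 87100131 with 98.9 kb (38 reads, fold 59.2), one on chromosome 3 from 84717372 to 84717494 with 95.5 kb (6 reads, fold 28.0) and one on chromosome 11 from 3093224 to 3094419 with 88.5 kb (163 reads, fold 3.0). The first of these, left out by a margin of about 1 kb, had a higher fold than all but 1 of the 247.

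GR peaks without a PPARα overlap that had a GR neighbour within 100 kb numbered 159. Their median fold, 23.7, equalled that of the isolated ones, their median reads were 9 and their median width was 141 bp. Their gap to the nearest PPARα peak had a median of 98.9 kb. Their GR neighbours may overlap PPARα peaks, so that gap depends on the selection as well.

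Each of the 19 autosomes and both sex chromosomes held GR-only isolated peaks. Chromosome 5 held the most, 21 (8.50% of the 247), although it held 4.06% of all GR peaks. These were 48.8% of its 43 isolated GR peaks. On chromosome 19 the share of isolated GR peaks without a PPARα overlap was 43.5% (10 of 23). Chromosome 13, which had the most GR peaks (106), held 7 of the 247, which were 18.9% of its 37 isolated GR peaks, against 247 of 822 over all chromosomes. The lowest share was on chromosome 16, with 4 of 30 isolated GR peaks (13.3%). These counts per chromosome were not tested.

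**Figure D5:**
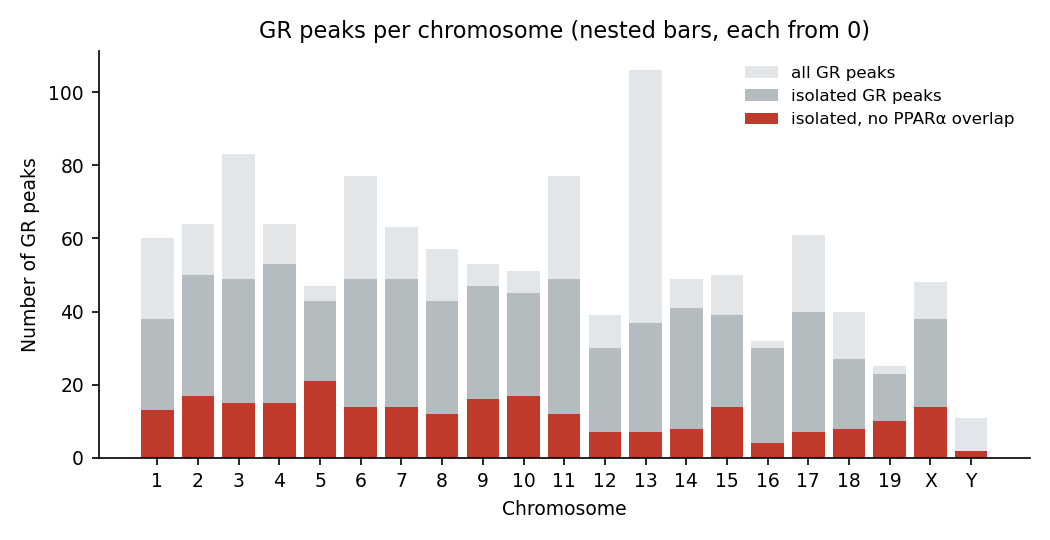
Number of GR peaks on each chromosome, with nested bars that all start at 0 for all GR peaks, isolated GR peaks and isolated GR peaks without a PPARα overlap. Chromosome 5 has the tallest bar of the last kind, 21, while chromosome 13 has 106 GR peaks of which 7 are of that kind.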

How the data were processed

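Per the submitters' processing notes, reads were handled with cutadapt and aligned with Bowtie to mm9, with no version given in the sources used here. The peak caller was MACS 1.4.2, per the file headers, run on each ChIP library by itself against the same input (30047397 reads) at a p cutoff of 1.00e-05, with 1 read kept per position and without pooling. After removal of duplicates there were 7516221 GR and 1959992 PPARα reads. The deposited tables give, per the file headers, a count of reads in each peak, a score (its p as negative log10, times 10), a fold ratio over background and an FDR in percent. The GR score column, whose heading is garbled, was taken by its order among the columns. Fold, score and FDR are the authors' values and were compared only within the GR list.

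Peaks were compared at a minimum overlap of 1 bp, and gaps were the start of the later minus the end of the earlier. The rule was tested on simulated data, where 0, 50 and 200 planted peaks gave 0, 50 and 200. Shares have exact Clopper-Pearson intervals. Members and bands were chosen with earlier results of these data known. Named peaks were the 10 of highest fold, the 10 with most reads, the 5 widest, the 5 nearest to a PPARα peak and 3 on each side of the 100 kb limit. Planned motif searches and gene lists were not run, as no mm9 genome or annotation was used here. The tools were matplotlib 3.10.9, scipy 1.17.1, pandas 2.3.3 and numpy 2.4.6 under Python 3.11.15.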

Additional observations from a re-analysis of the deposited data

How the results depend on the processing

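Each of 6 results was recomputed under 11 alternatives, of which the minimum of 8 reads was chosen after the data were seen. The number of isolated GR-only peaks stayed within 1.5 times of 247 except at a gap of 1 Mb (123) and with at least 8 reads (85, of which 76 belong to the 247). Those with a fold of 10 or more numbered 221, and 111 and 63 under these alternatives. With at least 8 reads the median reads were 11 and the median width was 168 bp. The median fold of 23.7 became 29.6 at a fold of 20 or more in both lists and 29.1 when a shared peak had to be covered by PPARα over at least 50% of its bases, which gave 310 peaks. Under that rule the median gap to a PPARα peak was 426.9 kb, and at a gap of 1 Mb it was 1056 kb. Each other value lay within the 95% interval of the reported median, or within 1.5 times of the reported count. With 6 or 7 reads in most peaks, the reads and fold of single peaks are poorly determined in 1 library without a replicate. No paired analysis was possible because there was only 1 library for each antibody and treatment.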
